A study of Mus musculus with 6 samples.

Results

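Necroptosis and pyroptosis are forms of regulated lytic cell death, and 10 genes of their core machinery were followed in mouse kidney: Zbp1, Ripk1, Ripk3, Mlkl and Casp8 for necroptosis, and Nlrp3, Pycard, Casp1, Casp4 and Gsdmd for pyroptosis. They were chosen by name, as the genes whose symbol the array files give to a probe. No rule on their values was used, but earlier results of these data were known when they were chosen. All 10 had a probe and all 10 were among the 19609 genes tested, out of 27344 genes on the array. Their 13 probes covered 22 spots. Ripk1 had 3 probes, Pycard had 2 and each other gene had 1. Every one of these probes was well above background on all 6 arrays.

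In necroptosis, RIPK1 or the nucleic acid sensor ZBP1 engages the kinase RIPK3, which phosphorylates the pseudokinase MLKL, and MLKL then disrupts the plasma membrane. Caspase-8 restrains this route by cleaving the kinases and also starts receptor-driven apoptosis. In pyroptosis, an inflammasome sensor such as NLRP3 recruits the adaptor ASC (the product of Pycard) and caspase-1, or caspase-11 (the product of mouse Casp4) responds to bacterial lipopolysaccharide, and both caspases cleave gasdermin D into a fragment that opens membrane pores. Both routes are studied in the kidney because tubule cells die after a loss of blood supply.

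The arrays were single-colour Agilent mouse arrays hybridised with kidney RNA, from mice that the labels all give as male. The labels put 2 arrays in wild-type sham surgery, 2 in wild-type renal ischaemia/reperfusion injury (the blood supply of the kidney is stopped and restored), 1 in Gpr97-deficient sham surgery and 1 in Gpr97-deficient injury. Gpr97 is the older name of Adgrg3, an adhesion G protein-coupled receptor gene. The sources used here do not give the allele, strain, age, length of ischaemia or day of collection. Each title has a number of its own, which the labels do not call an animal, so p-values speak only of the spread between these samples, part of which may be technical. The RNA is of whole tissue, in which fewer cells of a type and less RNA per cell cannot be told apart.

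Values are log2 of the processed signal relative to the 75th percentile of the same array, so that 1 unit is a 2-fold difference. Adgrg3 lay at 0.20 and 0.02 on the wild-type sham arrays and at 1.06 and 1.18 on the wild-type injured arrays. In deficiency it was at -5.38 after sham surgery and at -5.75, not well above background, after injury, as the genotype labels have it. Of 7 kidney tissue markers, 6 were well above background on every array, and Pax2 was on 3 of them. The share of the 41174 probes that was well above background ranged from 62.9% to 71.0% by array, and no array had a saturated spot (0 in all). Wild-type injured array 1 went against its label as male: Xist lay at 4.05 there and at -5.45 or lower elsewhere, and Ddx3y, Kdm5d, Eif2s3y and Uty were not well above background on that array alone. It and the other wild-type injured array can thus not be of 1 animal. Its level of Havcr1, a marker of tubule injury, was 1.55, against 4.17 and 2.78 on the other injured arrays and 0.04 to 1.28 on the sham arrays. Differences after injury are therefore given with and without this array. Per the file headers, slide 1 held the first wild-type sham array and the second wild-type injured array, and slide 2 held the other 4 arrays. The slides differ also in the version of the software that read the scans.

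The stretch before the start of the gene is shown for Mlkl and Ripk3, whose values followed each other most closely, and for Casp4, which held matches to a motif of NF-kB, a transcription factor of inflammatory signalling. Each is the 250 bases before an annotated start in RefSeq on GRCm38.p6, read 5′ to 3′ on the strand of the gene. They lie at chr8:111338206-111338455 (minus strand) for Mlkl, chr14:55788858-55789107 (minus strand) for Ripk3 and chr9:5308599-5308848 (plus strand) for Casp4. Capitals mark the matches to the NF-kB consensus.
Mlkl: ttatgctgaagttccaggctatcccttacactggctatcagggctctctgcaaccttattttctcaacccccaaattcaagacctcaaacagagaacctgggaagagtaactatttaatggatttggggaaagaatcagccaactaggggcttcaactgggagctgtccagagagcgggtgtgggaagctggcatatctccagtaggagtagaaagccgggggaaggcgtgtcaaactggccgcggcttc
Ripk3: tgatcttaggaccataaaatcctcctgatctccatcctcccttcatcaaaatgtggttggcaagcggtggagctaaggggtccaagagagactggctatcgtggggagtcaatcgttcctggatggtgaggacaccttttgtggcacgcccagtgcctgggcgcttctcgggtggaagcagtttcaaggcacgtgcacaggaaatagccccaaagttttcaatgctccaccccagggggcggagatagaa
Casp4: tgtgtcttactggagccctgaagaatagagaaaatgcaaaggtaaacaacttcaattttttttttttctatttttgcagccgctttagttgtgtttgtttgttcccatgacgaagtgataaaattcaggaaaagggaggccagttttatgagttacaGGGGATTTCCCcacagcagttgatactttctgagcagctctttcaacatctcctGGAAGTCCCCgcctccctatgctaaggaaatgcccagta
In all, 8 of the 10 genes were matched in the RefSeq table, and Gsdmd and Zbp1 were not. The NF-kB consensus, searched on both strands, began 93, 92 and 39 bases before the Casp4 start shown, the first pair overlapping each other. The same matches began 104, 103 and 50 bases before another annotated start of Casp4. The consensus also began 186 bases before a start of Nlrp3. It was present in 7.25% of all 32851 windows of 250 bases. The gamma-activated site TTCNNNGAA, a motif of STAT factors that reads alike on both strands, began 108 and 11 bases before a start of Ripk1 and was present in 7.02% of all windows. The core of the interferon-stimulated response element, searched as 2 copies of TTTC with any 2 bases between them, was found before 0 of the 8 genes and in 2.98% of all windows, and the AP-1 motif TGANTCA before 0 of the 8 genes and in 6.75% of all windows, both searched on both strands. No match of one motif overlapped a match of another in these windows. The windows of Mlkl and Ripk3 held none of the motifs, which says only that these letters do not occur in them.

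Injury was the first comparison, with the 3 injured arrays set against the 3 sham arrays over both genotypes. Ripk3 and Mlkl, the kinase and the executioner of necroptosis, were 2.67-fold and 3.25-fold higher on the injured arrays, and Casp8 was 1.75-fold higher. Ripk1 was 1.09-fold higher and Zbp1 1.2-fold lower. Of the genes of pyroptosis, Casp4 and Pycard were 1.47-fold and 1.32-fold higher, Gsdmd differed 1.05-fold, and Casp1 and Nlrp3 were 1.39-fold and 1.25-fold lower. The signs of Zbp1, Casp1 and Nlrp3 turned with normexp background correction. None of the 10 genes passed limma at an adjusted p under 0.05, and neither did any gene of the 19609 tested, so that the background of called genes was 0%. At an unadjusted p under 0.05 stood 4 of the 10 genes (Mlkl, Ripk3, Casp8 and Casp4) and 2408 of all genes, or 12.3%. The median difference of the 10 genes was 0.26 on the log2 scale against -0.06 over all genes tested. Of the 10 genes, 7 were higher after injury, against 43.3% of all genes, and all 10 were higher with normexp background correction, under which the median over all genes was 0.19.

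**Figure D1:**
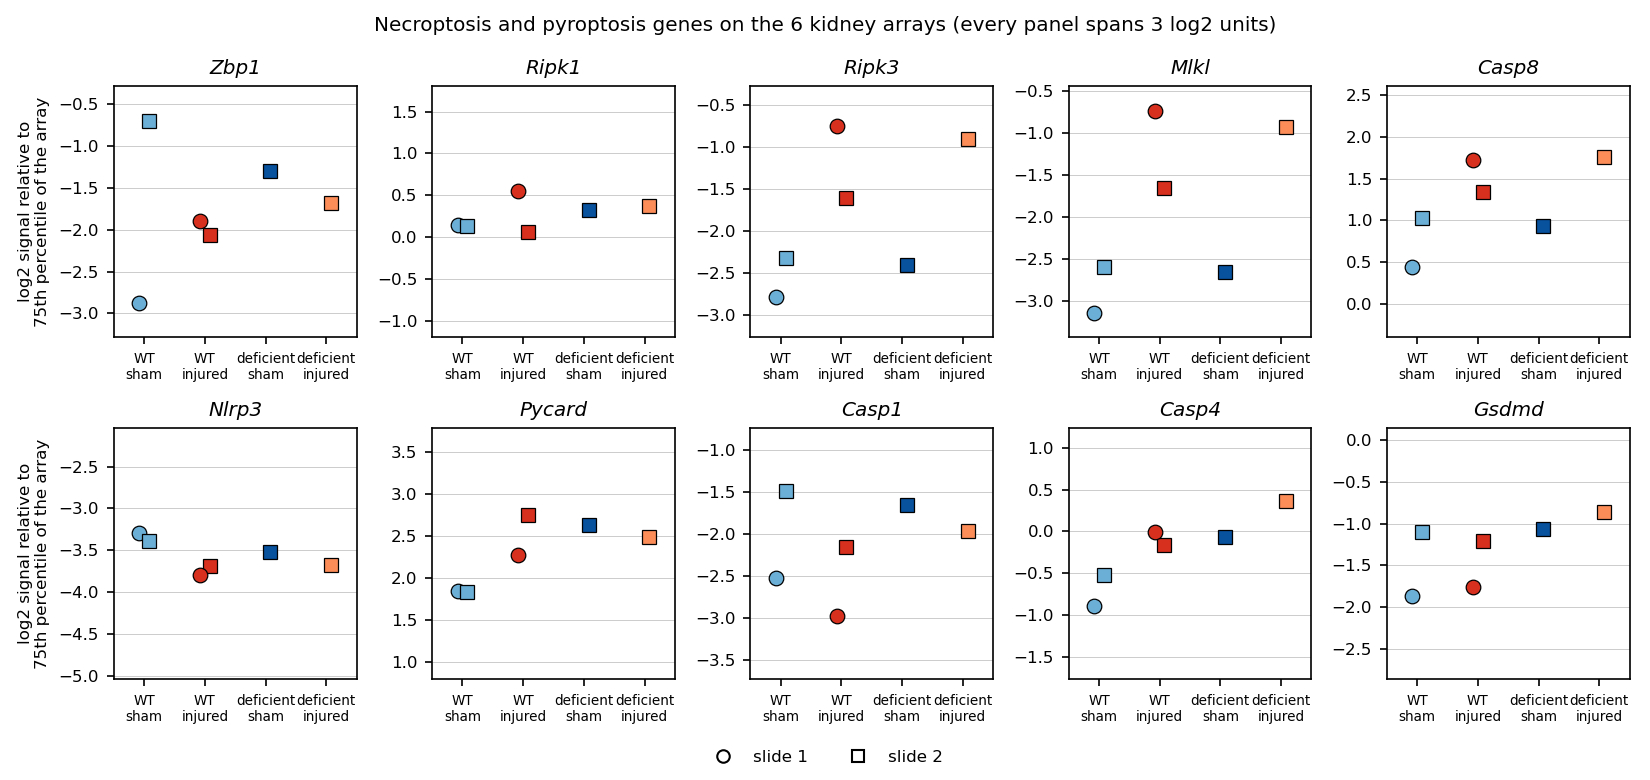
Level of each of the 10 genes on every array, in log2 signal against that array's 75th percentile (vertical axis), by genotype and surgery (horizontal axis). Circles are arrays of slide 1, squares of slide 2, and each point is 1 array with no error bar. Every panel spans the same number of log2 units, and the injured points of Ripk3, Mlkl and Casp8 lie above all their sham points.

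Mlkl was measured with a probe at chr8:113835897-113835956 (mm9, minus strand, as the array files place it). It lay at -3.14 and -2.60 on the wild-type sham arrays and at -2.66 on the deficient sham array. It lay at -1.65 and -0.73 on the wild-type injured arrays and at -0.93 on the deficient injured array. All injured arrays were thus above all sham arrays, and wild-type injured array 1 was the lowest of the injured ones. The difference over both genotypes was 1.70 on the log2 scale (SE 0.31, 95% interval 0.91 to 2.49, adjusted p = 0.262 by limma), and 1.24% of all genes had one as high. It was 1.69 in wild type (SE 0.43, adjusted p = 0.769) and 1.73 between the 2 deficient arrays. Without wild-type injured array 1 the difference over both genotypes was 1.97 (adjusted p = 0.159).

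Ripk3, the kinase that phosphorylates MLKL, was measured at chr14:56403949-56404008 (mm9, minus strand). Its levels were -2.79 and -2.32 on the wild-type sham arrays and -2.41 on the deficient sham array, against -1.61 and -0.75 on the wild-type injured arrays and -0.90 on the deficient injured array. The groups did not overlap, and the 6 arrays stood in the same order as for Mlkl, from wild-type sham array 1 at the low end to wild-type injured array 2 at the high end. The difference over both genotypes was 1.42 (SE 0.29, 95% interval 0.67 to 2.16, adjusted p = 0.263 by limma), and 1.82% of all genes had one as high. It was 1.37 in wild type and 1.51 between the deficient arrays, and 1.68 over both genotypes without wild-type injured array 1 (adjusted p = 0.16).

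Casp8, the caspase that restrains necroptosis, was measured at chr1:58901601-58901660 (mm9, plus strand). It lay at 0.45, 1.03 and 0.93 on wild-type sham arrays 1 and 2 and the deficient sham array. It lay at 1.34, 1.72 and 1.76 on wild-type injured arrays 1 and 2 and the deficient injured array. Again the injured arrays all lay above the sham arrays. The difference was 0.80 (SE 0.23, 95% interval 0.22 to 1.39, adjusted p = 0.329 by limma), with 5.11% of all genes as high, and it was 0.92 without wild-type injured array 1 (adjusted p = 0.227).

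Ripk1 and Zbp1, which act upstream of RIPK3, did not separate the surgeries. Ripk1 lay at 0.15, 0.13 and 0.33 on the sham arrays and at 0.06, 0.55 and 0.37 on the injured arrays (wild type 1, wild type 2, deficient), with a difference of 0.12 (SE 0.19, 95% interval -0.37 to 0.62, adjusted p = 0.84 by limma), or 0.25 without wild-type injured array 1. Its 3 probes, at different places between chr13:34124490 and chr13:34126320 (mm9, plus strand), differed between the surgeries by 0.12, 0.06 and -0.07. The 3 probes thus gave small differences that were not all of 1 sign. Zbp1, at chr2:173032113-173032170 (mm9, minus strand), had the widest spread of the 10 among the sham arrays, at -2.87, -0.70 and -1.30. On the injured arrays it lay within that range, at -2.06, -1.90 and -1.68. The difference was -0.26 (SE 0.58, 95% interval -1.74 to 1.23, adjusted p = 0.901 by limma), an interval that holds both a lower and a higher level by more than 2-fold. Leaving out wild-type injured array 1 gave -0.23, leaving out wild-type sham array 1 gave -0.89, and its value was 0.35, of the opposite sign, without wild-type sham array 2.

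Casp4, which encodes the caspase of the non-canonical route of pyroptosis, had the largest difference of the pyroptosis genes, with a small overlap. It lay at -0.89, -0.52 and -0.07 on the sham arrays and at -0.16, -0.01 and 0.36 on the injured arrays, in the same order of groups, at chr9:5336645-5336704 (mm9, plus strand). The deficient sham array was above wild-type injured array 1, so the groups overlapped, by 0.09. The difference over both genotypes was 0.55 (SE 0.18, 95% interval 0.10 to 1.01, adjusted p = 0.356 by limma), and 0.58 without wild-type injured array 1.

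Pycard, the gene of the adaptor ASC, was measured at chr7:135136221-135136280 (mm9, minus strand). It lay at 1.84 and 1.83 on the wild-type sham arrays and at 2.75 and 2.27 on the wild-type injured arrays. The deficient arrays stood at 2.63 after sham surgery and 2.49 after injury, both below wild-type injured array 1, which carried Xist, and above wild-type injured array 2. Over both genotypes the difference was 0.40 (SE 0.25), or 0.19 without wild-type injured array 1. Without either deficient array the same model gave 0.67, which is the wild-type difference alone. In wild type the injured arrays were higher by 0.67 (SE 0.28, 95% interval -0.10 to 1.45, adjusted p = 0.794 by limma), or 0.43 without wild-type injured array 1, and between the deficient arrays the difference was -0.14. The test of the difference between those changes gave -0.81 (SE 0.49, 95% interval -2.15 to 0.52, adjusted p = 1 by limma), so a difference between the genotypes was not shown. The other Pycard probe, which overlaps the first on the genome, gave 0.43, 0.64 and -0.07 in the pairs of arrays described next, where the first gave 0.43, 0.92 and -0.14.

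Nlrp3, the sensor, was lower on all injured arrays than on all sham arrays by a small margin. It lay at -3.29, -3.39 and -3.52 on the sham arrays and at -3.69, -3.79 and -3.68 on the injured arrays (chr11:59378554-59378613, mm9, plus strand). The difference was -0.32 (SE 0.15, 95% interval -0.71 to 0.07, adjusted p = 0.474 by limma). It was -0.33 without wild-type injured array 1, and with normexp background correction it turned to 0.41.

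Casp1, the caspase that matures interleukin-1β, was measured by a probe that spans chr9:5306226-5306728 (mm9, plus strand). It lay at -2.53, -1.49 and -1.66 on the sham arrays and at -2.16, -2.98 and -1.96 on the injured arrays. The surgeries overlapped, and the slide 1 array was the lowest of both. The difference was -0.47 (SE 0.37, 95% interval -1.43 to 0.48, adjusted p = 0.648 by limma), and 0.12 with normexp background correction. Leaving out wild-type injured array 1 gave -0.68 and leaving out wild-type sham array 1 gave -0.74, but the value was -0.15 without wild-type sham array 2 and -0.21 without wild-type injured array 2. In wild type it was -0.56, or -0.97 without wild-type injured array 1. Gsdmd, the pore-forming substrate, lay at -1.86, -1.10 and -1.07 on the sham arrays and at -1.21, -1.76 and -0.86 on the injured arrays (chr15:75697536-75697595, mm9, plus strand). The difference was 0.07 (SE 0.28, 95% interval -0.66 to 0.79, adjusted p = 0.957 by limma), or -0.07 without wild-type injured array 1. The array carries this probe on 10 spots, of which 7 to 10 per array were used, and their SD within an array was 0.02 to 0.08.

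Counted over the 10 genes, all injured arrays lay above all sham arrays for 3 (Ripk3, Mlkl and Casp8), against 9.68% of all genes, and below them for 1 (Nlrp3), against 13.1%. Without wild-type injured array 1 the count above was 5, with Ripk1 and Casp4 added, against 14.4% of all genes. Without the deficient sham array it was also 5, with Casp4 and Pycard added, against 13.7%. Without wild-type sham array 1 the count below was 3, with Zbp1 and Casp1 added, against 20.5%. Under this rule a gene of the full count stays in it when 1 array is left out. Counts with 1 array left out, here and below, can thus only stay or rise. That Ripk3, Mlkl and Casp8 stayed in the count above follows from the rule and adds nothing to it.

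Wild-type arrays of either surgery are on both slides, so each injured array could also be set against the sham array of its genotype on its own slide, which leaves out the slide. Mlkl was higher by 2.42 in the wild-type pair of slide 1, by 0.96 in the wild-type pair of slide 2 and by 1.73 in the deficient pair of slide 2. For Ripk3 the values were 2.04, 0.71 and 1.51, and for Casp8 1.27, 0.31 and 0.83. For these 3 genes the smallest value came from the pair that holds wild-type injured array 1, which carried Xist and had the lowest Havcr1 of the injured arrays, and the part of that array in it was not tested. None of the 10 genes was at least 2-fold higher in every pair, against 1.16% of all genes, and none at least 2-fold lower, against 0.775%. Leaving out the pair with wild-type injured array 1, Ripk3 and Mlkl were at least 2-fold higher in both that remained, against 2.11% of all genes. Without the wild-type pair of slide 1 the count was 0, against 1.84%, and without the deficient pair 0, against 1.92%. These counts follow from the pair values given above.

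**Figure D2:**
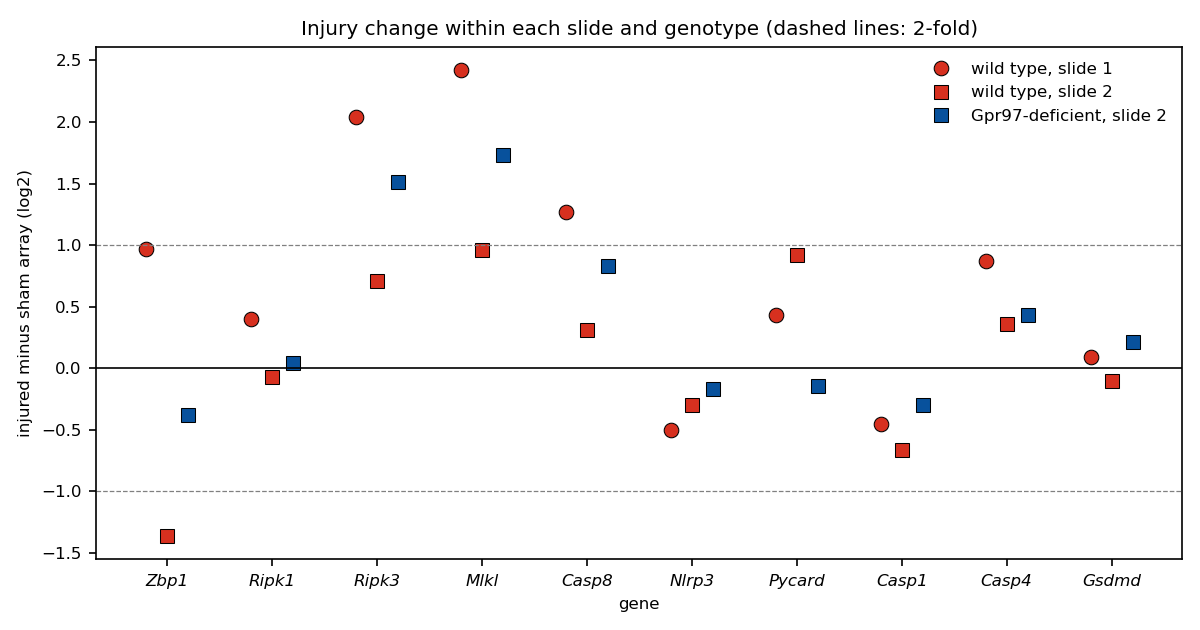
Injured minus sham array of 1 genotype on 1 slide, in log2 (vertical axis), for each of the 10 genes (horizontal axis). Circles are the wild-type pair of slide 1, red squares the wild-type pair and blue squares the deficient pair of slide 2, each a single difference of 2 arrays with no error bar. Dashed lines mark 2-fold. Mlkl, Ripk3, Casp8 and Casp4 lie above 0 in every pair, and Nlrp3 and Casp1 below 0.

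Counting a difference of any size, a rule added after the values were seen, 4 of the 10 genes were higher in every pair (Ripk3, Mlkl, Casp8 and Casp4), against 18.7% of all genes. Lower in every pair were 2 (Nlrp3 and Casp1), against 26.4%. Casp4 was higher by 0.87, 0.36 and 0.43 in the 3 pairs, and Casp1 lower, with values of -0.45, -0.66 and -0.30. Casp1 thus differed in 1 direction within each slide although its levels overlapped between the surgeries. With slide as a block the estimate for Casp1 stayed at -0.47 and its SE was 0.15 (adjusted p = 0.239 by limma). The direction of Zbp1 was not shared by the pairs, which gave 0.97, -1.36 and -0.38.

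Setting the slides against each other in place of the surgeries, also added after the values were seen, Casp1 and Gsdmd lay higher on all 4 arrays of slide 2 than on both arrays of slide 1. The gap between the slides was 0.37 for Casp1 and 0.56 for Gsdmd. That makes 2 of the 10 genes, against 13.3% of all genes, and none of the 10 was lower on all arrays of slide 2, against 17.1%. The other 8 genes, Casp4 among them, overlapped between the slides. The levels of markers of other cell types are given beside Casp1 and Gsdmd. The median of 15 macrophage and monocyte markers, relative to the wild-type sham mean, was -0.62 and -0.09 on slide 1 and 0.25 to 0.74 on slide 2. That of 11 T and NK cell markers overlapped, at -0.64 and -1.23 on slide 1 and -0.80 to 0.64 on slide 2. The part of these cells or of the slide in the levels of Casp1 and Gsdmd was not tested.

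Mlkl and Ripk3 followed each other closely across the 6 arrays. After each gene was centred on its own mean, the root mean square difference between them was 0.15 on the log2 scale, and 0.0269% of 14891 named genes were as close to Mlkl. No other pair of the 10 was under 0.23, the value for Casp4 and Casp8. The 3 named genes nearest to Mlkl were Hmga1 (0.07), Relb (0.13) and Zfp469 (0.13), and those nearest to Ripk3 were Eif6 (0.11), Hmga1 (0.12) and Flot1 (0.14). The points of this measure share 6 arrays and the surgery, and it is given as a description. For 3 further genes, chosen after their values were seen, the nearest were Slc39a1 for Casp8 (0.07), H2-T23 for Casp1 (0.05) and Fgl2 for Zbp1 (0.16). H2-T23, a class I histocompatibility gene, lay at 4.05 and 3.61 on slide 1 and at 4.32 to 5.17 on slide 2, a pattern that its choice as nearest to Casp1 fixes.

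**Figure D3:**
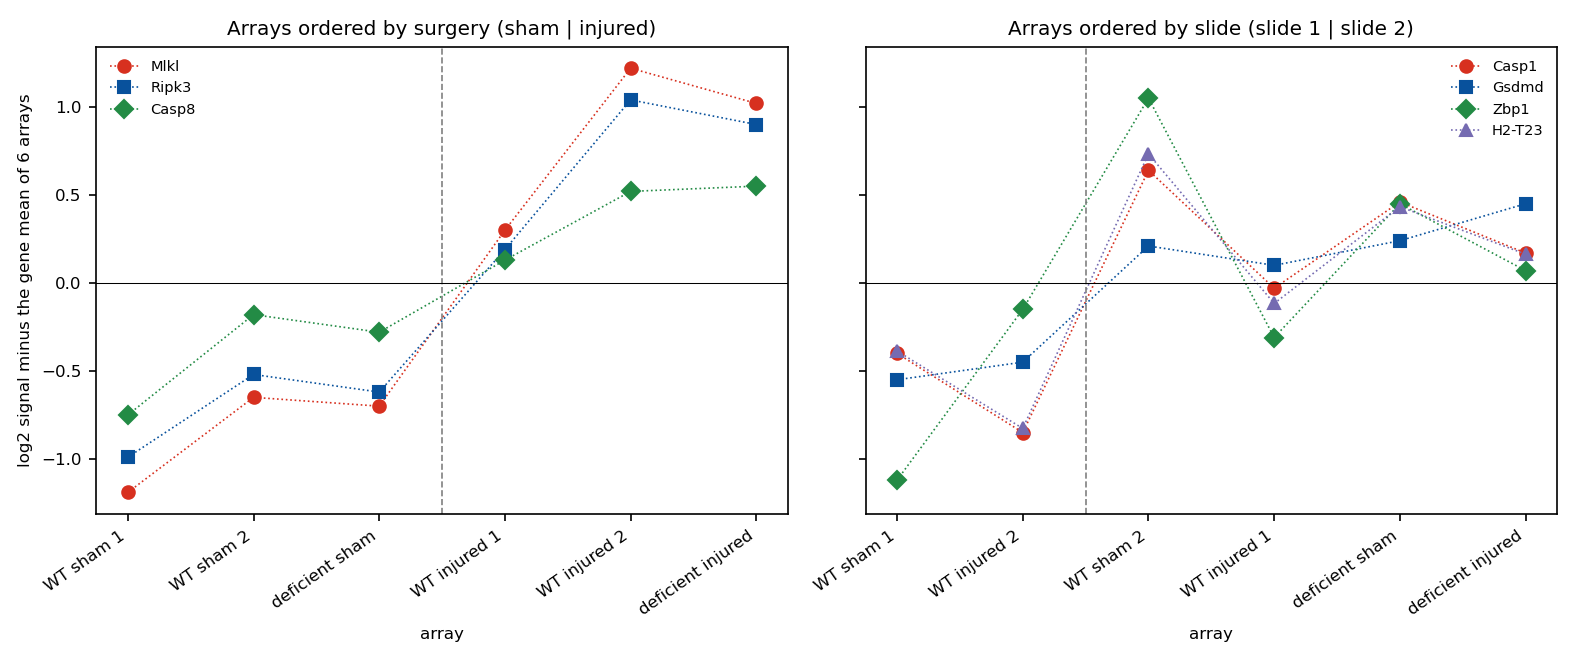
Log2 signal minus the gene's own mean over 6 arrays (vertical axis) on each array (horizontal axis), with 1 point per array and dotted lines that only join points of a gene. On the left the arrays are ordered by surgery, and Mlkl and Ripk3 run side by side, with a root mean square difference of 0.15. On the right they are ordered by slide, and Casp1, Gsdmd and H2-T23 (shown as the gene nearest to Casp1) are lower on both slide 1 arrays than on every slide 2 array, while Zbp1 overlaps.

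The next comparison asked whether the 10 genes differed with Gpr97 deficiency. Over both surgeries 9 of the 10 were higher in the deficient arrays, against 48.4% of all genes, with a median of 0.32 against -0.01, and 6 were higher with normexp background correction, where the median of all genes was -0.17. None passed limma, against a background of 0% of all genes called, and at an unadjusted p under 0.05 stood 1 of the 10 and 639 of all genes. That gene was Casp4, at 0.54 (SE 0.19, 95% interval 0.05 to 1.02, adjusted p = 0.993 by limma). Gsdmd was higher by 0.52 (SE 0.30) and Casp1 by 0.47 (SE 0.39). Both deficient arrays were on slide 2, so these values can hold a difference between slides. With slide as a block Casp4 was at 0.48 (SE 0.21), Gsdmd at 0.19 (SE 0.17) and Casp1 at 0.01 (SE 0.18).

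Values within slide 2, added after the others were seen, come from 1 array for each genotype and surgery and have no replicate. After sham surgery the deficient array was the higher one for 4 of the 10 genes, against 49.6% of all genes. After injury it was the higher one for 9 of them, against 46.6%. The median over the 10 genes was -0.07 after sham surgery and 0.37 after injury. The wild-type array of the injured pair is the one with Xist. Mlkl differed by -0.05 after sham surgery and 0.72 after injury, and Ripk3 by -0.10 and 0.71. Higher in the deficient array after both surgeries were 3 genes, Casp4 (0.45 and 0.51), Ripk1 (0.21 and 0.32) and Gsdmd (0.04 and 0.35), against 22.8% of all genes. None of the 10 was lower after both, against 26.5%.

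Taken by surgery over both slides, the deficient array differed from the 2 wild-type arrays after injury by 0.62 for Gsdmd (SE 0.49), the largest of the 10, with 0.26 for Mlkl (SE 0.53) and 0.28 for Ripk3 (SE 0.50). With slide as a block Gsdmd was at 0.30 and no longer the largest, with Casp4 and Ripk3 both at 0.38 and Mlkl at 0.36. After sham surgery the largest was Pycard, at 0.80 (SE 0.34, 95% interval -0.15 to 1.74, adjusted p = 1 by limma). The injury change differed between the genotypes by 0.04 for Mlkl (95% interval -2.02 to 2.11) and by 0.14 for Ripk3 (95% interval -1.80 to 2.09), both wide intervals. In injury in wild type, injury in deficiency, deficiency after injury, deficiency after sham surgery and the difference of the injury change, none of the 10 genes was called, against 0% of all genes in each. The counts at an unadjusted p under 0.05 were 2, 1, 0, 0 and 0 of the 10, against 6.40%, 2.73%, 1.43%, 2.14% and 1.48% of all genes. These comparisons share arrays with one another and with those over both genotypes or surgeries.

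Other genes of the same and neighbouring pathways were taken from 5 lists, and none of their 121 tested members was called in the injury comparison. Of 22 genes upstream of necroptosis, 16 were higher after injury and 6 lower, with a median of 0.11. All injured arrays lay above all sham arrays for 6 of them, Tnfrsf1a, Fadd, Traf2, Birc2, Birc3 and Tnfaip3, against 9.68% of all genes, and below for 1, Cyld, against 13.1%. Leaving out 1 array, a count added after the values were seen here and for the other lists, these were 6 to 8 above and 1 to 3 below, with 2 below without wild-type injured array 2 and 3 below without wild-type sham array 1 or the deficient injured array. Among all genes the same shares were 11.8% to 16.1% above and 16.1% to 21.2% below. Birc3, a ubiquitin ligase of the TNF receptor complex, lay at -0.59, -0.68 and -0.29 on the sham arrays and at 0.09, 0.79 and 0.77 on the injured arrays. Its difference was 1.07 (SE 0.23, adjusted p = 0.269 by limma). Tnfrsf1a, the receptor for TNF that can start necroptosis, was at 1.01 (SE 0.45) and Tnfaip3, which edits ubiquitin chains in that complex, at 0.43 (SE 0.20). Tnf itself was well above background on 2 of the 3 injured and 0 of the 3 sham arrays, and no fold is given.

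Of 23 tested genes among inflammasome sensors, pyroptosis effectors and their substrates, 12 were higher after injury and 11 lower, with a median of 0.05. Il1rn, the antagonist of the interleukin-1 receptor, was at least 7.11-fold higher on the injured arrays, since it was not well above background on any sham array (adjusted p = 0.26 by limma). It lay at -2.72, -1.37 and -3.17 on the injured arrays and was at least 2-fold higher in every pair within a slide. Panx1, a channel protein of the plasma membrane, was at 1.17 (SE 0.32) and Nlrp6, an inflammasome sensor of epithelia, at -1.15 (SE 0.43), with no overlap between the surgeries for either. Mefv, the gene of pyrin, was at 1.06 (SE 0.75). Within the slides Mefv differed by 2.65, 0.20 and 0.34, the first against wild-type sham array 1, where it was not well above background. The substrates of caspase-1, named after their values were seen, were at 0.16 for Il1b (SE 0.45) and -0.50 for Il18 (SE 0.26). All injured arrays lay above all sham arrays for 2 genes of this list (8.70%, against 9.68% of all genes) and below for 3 (13.0%, against 13.1%). Leaving out wild-type injured array 1 put 5 above (against 14.4% of all genes), and leaving out the second array of either wild-type group put 4 above (11.8% and 13.8%). The count below was 5 without either wild-type sham array (20.5% and 16.9%).

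**Figure D4:**
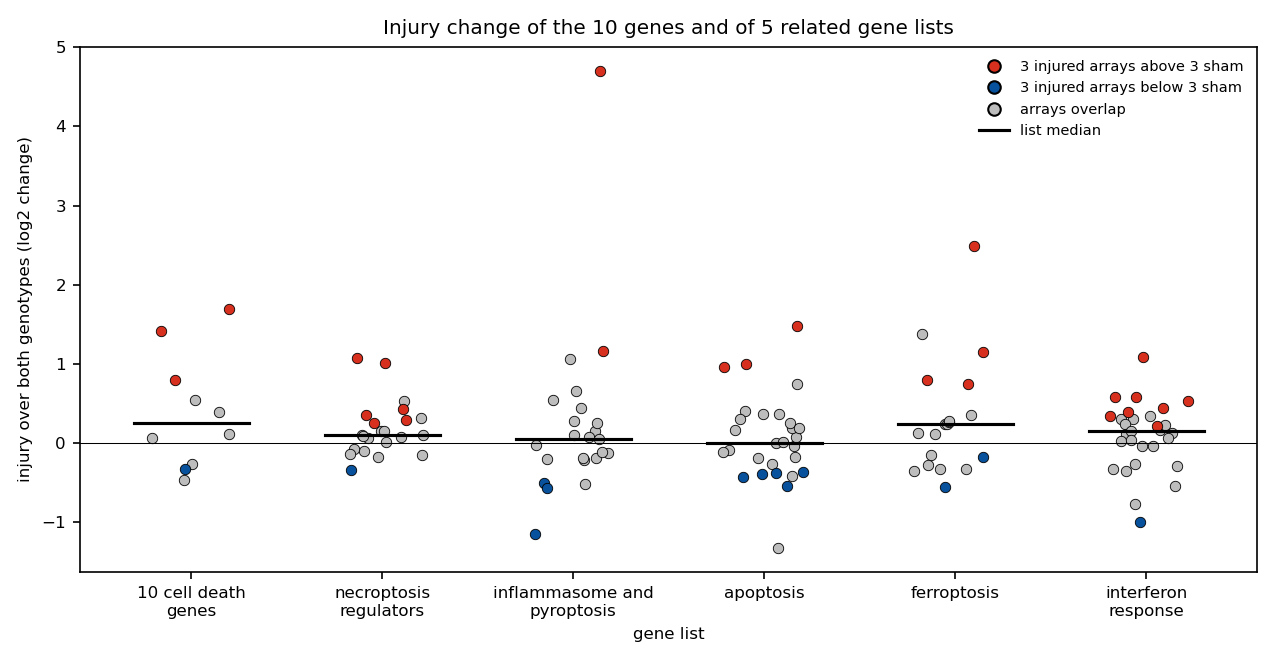
Injured minus sham difference over both genotypes, in log2 (vertical axis), for each tested gene of the 10 and of 5 related lists (horizontal axis). Each point is 1 gene, placed sideways only to separate points. Red points have all 3 injured arrays above all 3 sham arrays, blue points all below, grey points overlap, and bars are list medians, from 0.01 for apoptosis to 0.26 for the 10 genes. The highest point, at 4.70, is Il1rn, whose sham signals were not well above background.

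Genes of other forms of cell death are given for scale. Of 28 apoptosis genes, 15 were higher and 13 lower, with a median of 0.01, and injured and sham arrays did not overlap for 3 that were higher, against 9.68% of all genes, and 5 that were lower, against 13.1%. Bak1, which permeabilises mitochondria, was higher by 1 log2 unit (SE 0.25), and Bcl2l1, which opposes it, at 0.96 (SE 0.28). Tnfrsf10b, a death receptor, was at 1.48 (SE 0.58), and Birc5, a mitotic inhibitor of apoptosis, at -1.32 (SE 0.84), a value that rests on the deficient sham array, at 1.88, since the difference was -0.15 in wild type and -3.67 between the deficient arrays. Tnfrsf10b was not well above background on wild-type sham array 1. The apoptosis genes above were 8 without wild-type injured array 1 (against 14.4% of all genes) and 5 without the deficient sham array (against 13.7%), in place of 3. Of 19 ferroptosis genes, 12 were higher and 7 lower, with a median of 0.24, and without overlap 4 lay above, against 9.68% of all genes, and 2 below, against 13.1%. Above were 7 without wild-type sham array 1, against 16.1% of all genes, and below were 4 without wild-type sham array 2 or the deficient sham array, against 16.9% and 18.3%. Acsl4, which makes the lipids that are oxidised in ferroptosis, was at 1.15 (SE 0.27) and at least 2-fold higher in every pair. Hmox1, which degrades haem, was at 2.49 (SE 0.90). Within the slides Hmox1 differed by 4.89, 0.06 and 2.53, the 0.06 in the pair with wild-type injured array 1. Ptgs2, a prostaglandin synthase that was well above background on 1 of 3 sham arrays, was at 1.38 (SE 0.97) and Gclc, of glutathione synthesis, at 0.80 (SE 0.24).

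Zbp1, Casp1, Casp4 and Mlkl are known as genes that interferon can induce, so a list of interferon response genes was set beside them. Of 29 tested, 20 were higher after injury and 9 lower, with a median of 0.15, and all injured arrays lay above all sham arrays for 8, against 9.68% of all genes, and below for 1, against 13.1%. Cxcl10, a chemokine, was at 1.09 (SE 0.38) and Oas1a and Oasl2, of the antiviral oligoadenylate synthase family, were both at 0.58. Rsad2, an antiviral enzyme, was at -0.99 (SE 0.21), with no overlap between the surgeries. Igtp, an interferon-induced GTPase, lay at 1.19 and 1.60 on slide 1 and at 1.97 to 3.63 on slide 2, without overlap between the slides, against 13.3% of all genes. The count of this list below the sham arrays was 10 in place of 1 without wild-type sham array 1, against 20.5% of all genes, and 2 without wild-type sham array 2 or the deficient injured array, against 16.9% and 16.1%.

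Levels of markers of other cell types are given beside Mlkl, Ripk3 and Casp8. For their counts without overlap, the shares of all genes were 9.68% above and 13.1% below, 13.7% above without the deficient sham array and 20.5% below without wild-type sham array 1. Of 13 neutrophil markers all injured arrays lay above all sham arrays for 5, or 9 without the deficient sham array, and their log2 summed level was 1.41 to 5.88 on the sham and 5.33 to 6.21 on the injured arrays. On wild-type sham arrays 1 and 2, 8 and 5 of the 13 were not well above background, and on the deficient sham array 0. On wild-type injured arrays 1 and 2 these counts were 0 and 4, and on the deficient injured array 1. The deficient sham array was above every injured array for S100a8 (3.57 against at most 2.63), S100a9 (5.44 against at most 4.46), Retnlg, Camp, Ltf and Ngp. These genes were named after their values were seen. That the same array was below every injured array for the 5 markers of the first count follows from the rule of that count. So does its place below every injured array for Mlkl, Ripk3 and Casp8, and neither adds anything to the counts. Of 15 macrophage and monocyte markers, 2 (Cd68 and Cd14) were above on all injured arrays and 1 (Csf1r) below, or 6 below without wild-type sham array 1, and the log2 sum was 6.88 to 7.94 on the sham and 7.51 to 7.64 on the injured arrays, with all 15 well above background on every array. Of 10 proximal tubule markers 7 were below on all injured arrays, and the log2 sum was 10.06 to 10.31 on the sham and 8.57 to 9.74 on the injured arrays, the highest of these on wild-type injured array 1. Of 7 fibroblast markers 4 were above, and the log2 sum was 4.30 to 4.95 on the sham and 4.86 to 5.63 on the injured arrays. The part of these cell types in the levels of the 10 genes was not tested.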

How the data were processed

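The 6 deposited scanner files give intensity values per spot (processed, mean and background signals), read per the file headers with Feature Extraction 10.7.1.1 (slide 1) and 10.7.3.1 (slide 2), with probe positions in mm9. Their flags for well above background, saturation and outliers are other values, as deposited. The authors' deposited series values have medians of 6.07 to 6.09 and rank like the scanner signals (Spearman's rho 1 on every array to 4 decimals), so they were read as log2, in the same direction and not centred per gene, with their normalization unknown. Limma is named, with no version, in the submitters' processing notes.

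Log2 of the processed signal was taken minus the 75th percentile of 43379 non-control spots per array. Outlier-flagged spots were left out and spots of a probe averaged. The brightest probe by mean stood for a gene, and genes above background (by the file's flag) on 2 or more of the 6 arrays were tested. Where a gene was not well above background in a group, the fold is a bound against the lowest signal well above background. Of 41174 probes, 27668 were named by accession and 6057 by symbol or synonym through the RefSeq table, and 7449 kept the file's name.

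Limma 3.58.1 in R 4.3.3 (data.table version 1.17.8, jsonlite 2.0.0) was fitted to all genes, two-sided, with Benjamini-Hochberg adjustment and calls at an adjusted p under 0.05. An additive model (3 residual degrees of freedom) gave the comparisons over both genotypes or surgeries, and group means (2) gave the others, with each lone deficient array taken to vary as the wild-type arrays do. The fits were tested on simulated data. Python 3.11.15, pandas 2.3.3 and matplotlib 3.10.9 made the promoter windows and figures. The number of arrays limits the precision.

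The 10 genes and all lists were chosen with earlier results of these data known. Named beside the 10 are, per list, up to 4 genes with the largest injury difference, and the 3 genes nearest to the 2 members with the largest difference. Markers were used as lists on whole tissue. Alternatives covered background correction, normalization, the deposited values, probe choice, the filter on dim probes, slide as a block, the variance prior and leaving out each array.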

Additional observations from a re-analysis of the deposited data

How the results depend on the processing

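Under all 14 alternatives, the injury difference over both genotypes kept its sign for Mlkl (1.21 to 1.97), Ripk3 (1.08 to 1.68), Casp8 (0.64 to 0.97), Casp4 (0.43 to 0.64) and Pycard (0.19 to 0.67), and none of the 10 genes was called under any of them. Without either deficient array, the value over both genotypes is the wild-type difference alone, here and below, which gives the 0.67 of Pycard. The count of all genes called for injury over both genotypes was 1 (Sprr2f) with quantile normalization, with the values as deposited and with slide as a block, and 3 with the variance trend and robust prior, in place of 0. That prior also gave 1 (Adgrg3) for deficiency over both surgeries and 1 for deficiency after injury. With normexp background correction the sign turned over both genotypes for Zbp1 (0.02), Nlrp3 (0.41) and Casp1 (0.12), and in wild type for Zbp1 (0.19), Nlrp3 (0.70), Casp1 (0.32) and Gsdmd (0.38), and 0 genes lay below on all injured arrays in place of 1. Gsdmd in wild type, at 0.00, turned to 0.01 with quantile normalization and with the values as deposited. Leaving out 1 array, the genes with all injured arrays above numbered 3 to 5 and those below 1 to 3, counts that the rule lets only stay or rise. In the same leave-outs Gsdmd ranged from -0.13 (without wild-type sham array 1) to 0.30 over both genotypes, with -0.07 without wild-type injured array 1 and 0.00 without either deficient array, and from -0.38 to 0.37 (without wild-type sham array 2) in wild type, with 0.27 without wild-type injured array 2. Casp1 ranged from -0.74 to -0.15 over both genotypes. Zbp1 ranged from -0.89 to 0.35 over both genotypes and from -1.28 to 0.89 in wild type, the highest of each without wild-type sham array 2. Ripk1 ranged from -0.03 to 0.25 and from -0.08 to 0.42, the lowest of each without wild-type injured array 2. Without the wild-type pair of slide 2, 2 genes were at least 2-fold higher in each pair, and 0 without either other pair. Apart from the smaller number of arrays in the leave-outs, the cause was not tested. No paired analysis by replicate number was possible because those numbers were given here in accession order and pair no samples, and arrays were paired and blocked by slide. All 10 genes were well above background on every array.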
